A study of Homo sapiens with 3 samples.

Results

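The unfolded protein response is the program with which a cell answers misfolded protein in the endoplasmic reticulum (ER). Sensors in the ER membrane (IRE1, PERK and ATF6) activate transcription factors, among them XBP1, which raise the chaperones, folding enzymes and degradation factors of this compartment. HSPA5 and its fellow targets are therefore widely used as a readout of ER stress, and secretory cells keep many of them at high levels. The genes followed here were 9 genes of this response, XBP1, HSPA5, HSP90B1, CALR, SDF2L1, DNAJB9, PDIA4, HERPUD1 and SEL1L, together with FKBP11, a prolyl isomerase of the ER. They were taken by name from the 23284 genes listed for each library, and all 10 were found under these names. FKBP11 was included because its level was higher with both sgRNAs than with mock, so its difference from mock is a description and supports nothing.

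RNA-seq had been performed on 293T cells, a line derived from human embryonic kidney and widely used for transfection. Cells of every library carried dCas9-VP64, a nuclease-dead Cas9 that still binds its target and is fused to a transcriptional activator. The plasmid supplied with it encoded no L1 guide in mock, and otherwise sgL1ASP #1 or sgL1ASP #3, which target the antisense promoter in the 5′ end of LINE-1 (L1) retrotransposons. The comparison asked which genes change when this promoter is activated. In reporter assays of the study, sgL1ASP #1 activated it more strongly than sgL1ASP #3. The L1 promoter in the sense direction was suppressed by sgL1ASP #1 and slightly activated by sgL1ASP #3. The study describes the expression of dCas9-VP64 in these cells as transient, and mock is the only control, so that no library shows cells without dCas9-VP64. There was 1 library per condition. Replicates are thus missing for every difference below, and p-values are not given.

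The values are FPKM, the number of sequenced fragments per kilobase of exon, scaled to the size of the library, which allows levels of genes of different length to be compared. From the spacing of the lowest values, where a gene is covered by a single read, the depth of mock was estimated at about 10400000 reads, and relative to mock it was 0.987 with sgL1ASP #1 and 0.831 with sgL1ASP #3. Changes are differences of log2(FPKM + 0.1), which understates those of low genes, and a gene was tested when its mean FPKM was at least 1, as in 12830 genes including all 10 studied here. Counting errors are derived from the estimated reads. They cover neither the preparation of the libraries nor the differences between cultures. Of 8 markers of 293T cells, VIM, the intermediate filament vimentin, had the highest FPKM (807 for mock, 904 with sgL1ASP #1 and 862 with sgL1ASP #3), and PAX2, a kidney transcription factor, had the lowest (0.522, 0.654 and 0.658). The 8 markers of antibody-secreting plasma cells, which are rich in ER, summed to FPKM between 6.71 and 6.86, nearly all of it SDC1, with 4 to 6 of the 8 genes listed at 0. The 8 markers of other lineages summed to between 6.87 and 8.08, mostly OLIG2 (FPKM 4.46 in mock), with 3 or 4 genes listed at 0.

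The promoters were searched for exact letter matches to the classical DNA elements of the response. The ER stress element, ERSE, is bound by NF-Y at one end and by ATF6 or XBP1 at the other, and has the letters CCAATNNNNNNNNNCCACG. ERSE-II is a compact form with the letters ATTGGNCCACG. Both were searched on both strands in the RefSeq promoter windows of build GRCh38.p14, which span 250 bases before to 50 bases after each annotated start. ERSE was found in 27 of 35116 windows (0.0769%), and 4 of the 10 genes held it. ERSE-II was found in 19 windows (0.0541%), and a further 2 of the 10 genes held it. No single element is shared by all 6 genes, as 4 held ERSE and the other 2 held ERSE-II. Apart from FKBP11, the genes were chosen by name as genes of this response. Matches to its classical elements are therefore not independent of that choice. Each match is printed along the strand of the gene with 10 bases on either side, and the capitals mark the element. In CALR, SDF2L1 and the second match of HSP90B1 it lies in the opposite orientation.
HSPA5 (ERSE, chr9:125241381-125241419, minus strand): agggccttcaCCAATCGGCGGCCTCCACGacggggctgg
XBP1 (ERSE, chr22:28800593-28800631, minus strand): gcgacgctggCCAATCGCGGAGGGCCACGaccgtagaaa
HSP90B1 (ERSE, chr12:103930206-103930244, plus strand): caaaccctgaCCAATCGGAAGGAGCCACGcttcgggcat
HSP90B1 (ERSE, chr12:103930311-103930349, plus strand): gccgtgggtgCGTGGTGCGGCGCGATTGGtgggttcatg
CALR (ERSE, chr19:12938374-12938412, plus strand): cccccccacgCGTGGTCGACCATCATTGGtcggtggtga
HERPUD1 (ERSE-II, chr16:56932015-56932045, plus strand): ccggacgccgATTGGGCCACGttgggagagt
SDF2L1 (ERSE-II, chr22:21642104-21642134, plus strand): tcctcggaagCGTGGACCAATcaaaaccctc

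Relative to the annotated start, the first capital of each printed match lay at -66 in HSPA5, -52 in XBP1 and -194 and -89 in HSP90B1. It lay at -225 in CALR, -117 in HERPUD1 and -188 in SDF2L1. In the opposite orientation this base belongs to the CCACG end. FKBP11, DNAJB9, SEL1L and PDIA4 held no exact match to either form in their windows. Elements that differ in a letter or lie outside the windows are missed by this search. The UPRE, TGACGTGG, an element bound by XBP1, occurred in 256 windows (0.729%) and in 0 of the 10 genes. The bare CCACG that ends ERSE and ERSE-II was present in every one of the 10 genes, but also in 38.1% of all windows. In FKBP11 it occurred at -197 from 1 annotated start and, in the opposite orientation, at 21 bases past another. The match upstream of a start is printed for comparison with the elements above. No CCAAT at the spacing of ERSE precedes it.
FKBP11 (CCACG, chr12:48925675-48925699, minus strand): ttggcccgacCCACGttataggaca

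Most of the 10 genes were abundant in 293T cells and nearly level across the libraries. CALR, HSP90B1, HSPA5 and PDIA4 were higher in mock than 98.7% or more of the tested genes, while SEL1L was higher than 63.9%, DNAJB9 than 58.4% and FKBP11, the lowest of the 10, than 38.4%. Against mock, 6 of the 10 genes were higher with sgL1ASP #1 (50.3% of all tested genes were) and 5 with sgL1ASP #3 (50.4%). With both sgRNAs 4 were higher, as were 33.7% of all tested genes, 3 were lower and 3 lay on opposite sides of mock. A change of more than 1.5-fold in either direction was passed by 0 of the 10 genes with either sgRNA. It was passed by 3.55% of all tested genes with sgL1ASP #1 and 3.8% with sgL1ASP #3. The study used the same size of change differently, requiring a rise from mock to sgL1ASP #3 and a further rise to sgL1ASP #1. The median log2 change of the 10 genes was 0.0048 with sgL1ASP #1 and -0.00057 with sgL1ASP #3, beside 0.00085 and 0.0015 for all tested genes. These counts include FKBP11, which was chosen on them. Rescaling every library to the same FPKM sum moved the median of all tested genes by -0.092 and -0.12, and with it the split of the 10 genes, to 1 higher and 9 lower with sgL1ASP #1 and to 2 higher and 8 lower with sgL1ASP #3, FKBP11 being higher with both. The side of mock on which the other genes lay is therefore a matter of scaling for HSP90B1, HERPUD1, SEL1L, PDIA4 and SDF2L1 with sgL1ASP #1 and for SEL1L, PDIA4 and SDF2L1 with sgL1ASP #3. The comparisons with mock share the mock library, so agreement between them is not independent.

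**Figure D1:**
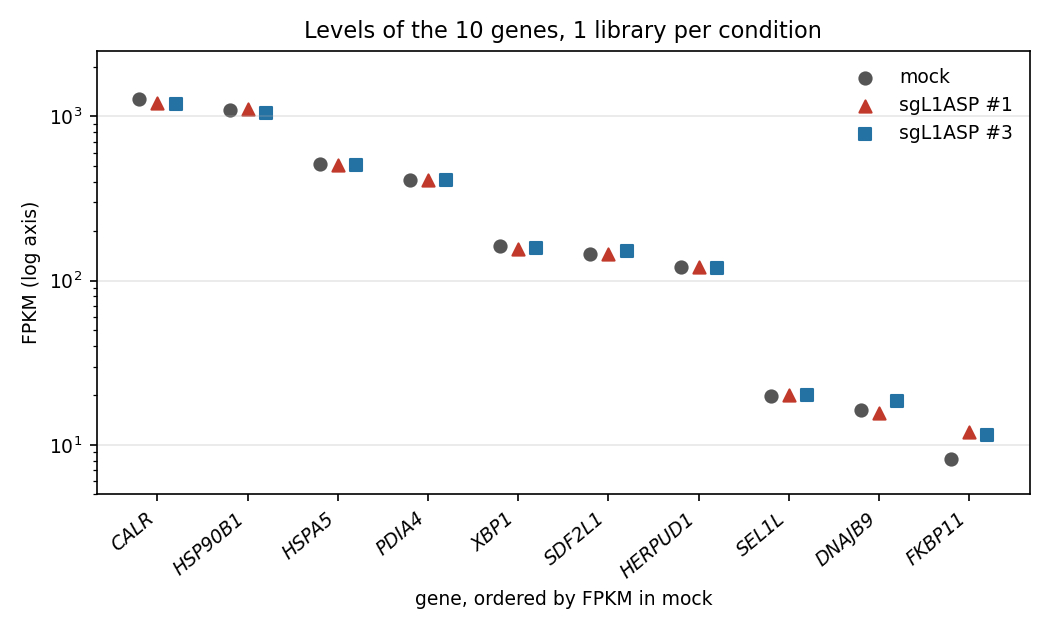
FPKM on a log axis of the 10 genes, ordered by their level in mock, with a circle for mock, a triangle for sgL1ASP #1 and a square for sgL1ASP #3, each a single library. The 3 symbols nearly coincide for most genes, from CALR at FPKM 1275 in mock downwards, and stand apart in FKBP11, where mock is lowest at 8.20.

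The order of levels was the same in every library, falling from CALR over HSP90B1, HSPA5, PDIA4, XBP1, SDF2L1, HERPUD1, SEL1L and DNAJB9 to FKBP11. The ranges of neighbouring genes in this order did not overlap over the 3 libraries. The plot of levels by library shows this order as steps. Between the highest and the lowest library the level differed by 1.0075-fold in PDIA4, the steadiest of the 10 genes, by 1.18-fold in DNAJB9 and by 1.46-fold in FKBP11.

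XBP1 encodes the transcription factor that IRE1 activates by removing a short intron from its mRNA. The gene lies on chromosome 22 of GRCh37 from 29190543 to 29196585, and its reference transcript has 6 exons and 1791 bases. FPKM of XBP1 was 163 for mock, 155 with sgL1ASP #1 and 158 with sgL1ASP #3. Mock was the highest library. The log2 change was -0.066 with sgL1ASP #1 and -0.037 with sgL1ASP #3, with counting errors of 0.040 and 0.042, so that both 95% intervals for counting error included 0. Values per gene sum the spliced and the unspliced form, and the splicing that marks IRE1 activity was not measured.

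HSPA5, also called BiP, is the HSP70 chaperone of the ER and holds the sensors inactive until misfolded protein draws it away. It lies on chromosome 9 from 127997132 to 128003661. FPKM of HSPA5 was 509 for mock, 502 with sgL1ASP #1 and 505 with sgL1ASP #3, and the 3 libraries thus lay within 1.014-fold of each other. Mock held about 19700 reads of this gene. The log2 change was -0.020 with a 95% counting interval from -0.049 to 0.0086 with sgL1ASP #1, and -0.012 with an interval from -0.042 to 0.018 with sgL1ASP #3. The bounds do not include the spread between cultures, which is unknown. RABEPK, 0.692 kb from HSPA5, had FPKM 18.4 for mock, 18.7 with sgL1ASP #1 and 23.2 with sgL1ASP #3. Its log2 changes were 0.021 and 0.33.

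HSP90B1, or GRP94, is the HSP90 chaperone of the ER, on chromosome 12 from 104323885 to 104347709. FPKM of HSP90B1 was 1098 for mock, 1100 with sgL1ASP #1 and 1052 with sgL1ASP #3, and the library of sgL1ASP #3 stood lowest. The log2 change was 0.0036 with sgL1ASP #1 and -0.061 with sgL1ASP #3. The 95% counting interval of the latter, from -0.086 to -0.037, did not include 0. UQCC6 encodes a mitochondrial protein and overlaps HSP90B1 on the opposite strand. Its FPKM was 12.2, 13.6 and 14.1 in mock, sgL1ASP #1 and sgL1ASP #3.

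CALR, calreticulin, binds calcium and folds glycoproteins that carry glucose, and lies on chromosome 19 from 13049392 to 13055303. FPKM of CALR was 1275 for mock, 1207 with sgL1ASP #1 and 1185 with sgL1ASP #3. Mock was the highest library, as in XBP1 and HSPA5. The log2 change was -0.079 with sgL1ASP #1 (95% counting interval -0.11 to -0.052) and -0.11 with sgL1ASP #3 (-0.13 to -0.078). CALR was the only one of the 10 genes whose counting intervals lay off 0 with both sgRNAs. This rests on reads estimated from the reference transcripts and on the deposited scaling. Under equal FPKM sums CALR was not alone. HSPA5 then changed by -0.11 and -0.13, HSP90B1 by -0.090 and -0.18, and XBP1 by -0.16 and -0.16. HERPUD1 changed by -0.088 and -0.13, and PDIA4 by -0.086 and -0.11. With the counting errors of the deposited values, the intervals of these genes would also lie off 0. All tested genes moved as well under this scaling, to medians of -0.092 and -0.12, and CALR moved to -0.17 and -0.23. Lying off 0 is then not particular to these genes. Rescaling to the median ratio moved none of these values beyond counting error. As deposited, the difference of CALR was small, 0.946 and 0.929 of the mock level, and 28.4% and 22.4% of the tested genes had lower changes.

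SDF2L1 and DNAJB9 assist HSPA5. SDF2L1 is a small partner of a DNAJ protein, on chromosome 22 from 21996591 to 21998588, and DNAJB9, also called ERdj4, is a DNAJ co-chaperone on chromosome 7 from 108210311 to 108215294. FPKM of SDF2L1 was 145 for mock, 145 with sgL1ASP #1 and 152 with sgL1ASP #3. Its log2 change was 0.0073 and 0.072, within the counting intervals around 0. CCDC116, 4.973 kb from SDF2L1, had FPKM 1.77 for mock, 0.729 with sgL1ASP #1 and 1.62 with sgL1ASP #3. The log2 changes of this low gene were -1.18 and -0.13. FPKM of DNAJB9 was 16.3 for mock, 15.7 with sgL1ASP #1 and 18.6 with sgL1ASP #3, so that sgL1ASP #1 lay below mock and sgL1ASP #3 above it. The log2 change of DNAJB9 was -0.055 with sgL1ASP #1 and 0.19 with sgL1ASP #3, each with a counting error of 0.11. Between the sgRNAs it was -0.24 (sgL1ASP #1 to sgL1ASP #3), with a 95% counting interval from -0.46 to -0.031, and 8.26% of the tested genes had a lower value. DNAJB9 was covered by about 355 to 374 reads per library.

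PDIA4, or ERp72, forms and rearranges disulfide bonds and lies on chromosome 7 from 148700154 to 148725754. FPKM of PDIA4 was 408 for mock, 410 with sgL1ASP #1 and 411 with sgL1ASP #3. The log2 change was 0.0075 and 0.011, with counting errors of 0.020 in both.

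HERPUD1 and SEL1L serve ER-associated degradation, in which misfolded proteins are moved out of the ER to the proteasome. HERPUD1 is a membrane protein that organizes the degradation complex, on chromosome 16 from 56966054 to 56978776, and SEL1L, on chromosome 14 from 81937891 to 82000197, is the partner of the ubiquitin ligase SYVN1. FPKM of HERPUD1 was 120.4 for mock, 120.9 with sgL1ASP #1 and 119.4 with sgL1ASP #3. FPKM of SEL1L was 19.8 for mock, 20.1 with sgL1ASP #1 and 20.0 with sgL1ASP #3. All 4 log2 changes of this pair against mock lay between -0.012 and 0.023, and every counting interval included 0.

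**Figure D2:**
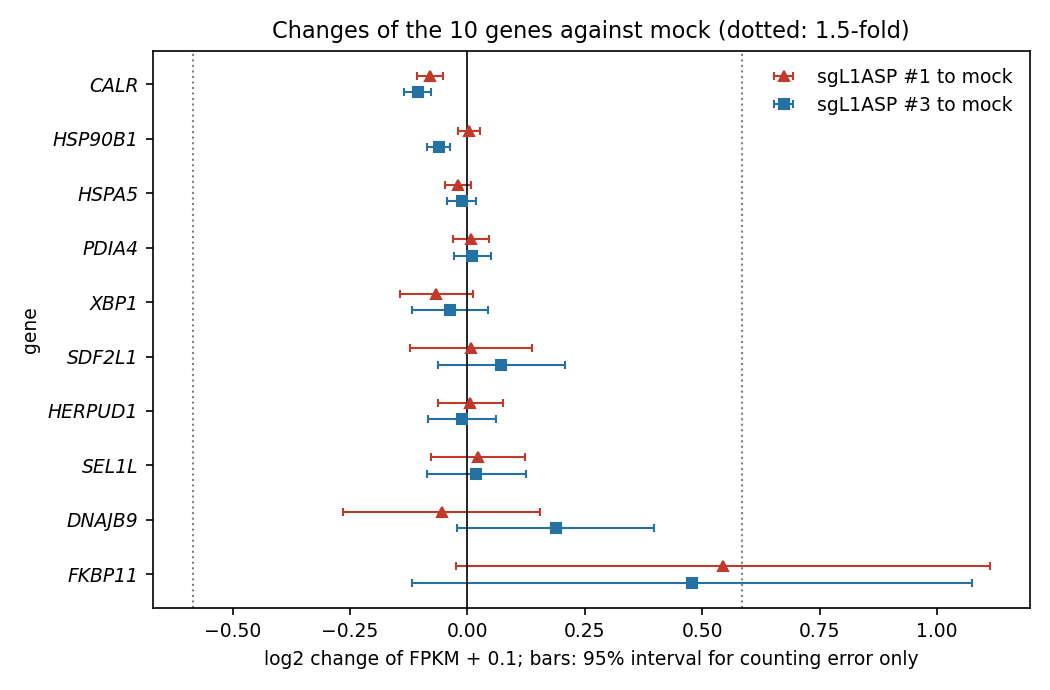
Log2 change of FPKM + 0.1 against mock for the 10 genes, with triangles for sgL1ASP #1, squares for sgL1ASP #3, bars for the 95% interval of counting error only, and dotted lines at 1.5-fold. FKBP11 lies farthest to the right, at 0.54 and 0.48, with intervals that reach below 0, and CALR lies left of 0 with narrow bars.

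FKBP11 is a membrane-anchored member of the FK506-binding proteins, which speed the turning of proline bonds in folding chains, and it is best known from secretory cells. The gene lies on the minus strand of chromosome 12 of GRCh37 from 49315301 to 49320257, and its reference transcript has 6 exons and 691 bases. FPKM of FKBP11 was 8.20 for mock, 12.0 with sgL1ASP #1 and 11.5 with sgL1ASP #3. Mock stood lowest, and the sgRNA libraries lay close together. The ratio to mock was 1.46 with sgL1ASP #1 and 1.40 with sgL1ASP #3, and the ratio of sgL1ASP #1 to sgL1ASP #3 was 1.05. Neither the step from mock to sgL1ASP #3 nor that from sgL1ASP #3 to sgL1ASP #1 thus exceeded 1.5-fold.

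The reads behind FKBP11 were few. With the reference transcript, FPKM corresponds to 41.9 reads for mock, 60.7 with sgL1ASP #1 and 48.6 with sgL1ASP #3. The log2 change was 0.54 with a counting error of 0.29 for sgL1ASP #1, and 0.48 with a counting error of 0.30 for sgL1ASP #3. The 95% counting intervals ran from -0.024 to 1.11 and from -0.12 to 1.07, so that both included 0. With the longest coding transcript of 1052 bases instead, chosen after the values were seen, the estimate rises to about 73 reads in mock, and the intervals run from 0.11 to 0.98 and from 0.025 to 0.93. The sign of the lower bound thus rests on which transcript the reads came from, which the values per gene do not show. Between the sgRNAs the log2 change was 0.067, with an interval from -0.48 to 0.61.

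The log2 change of FKBP11 was above that of 98.0% of the tested genes with sgL1ASP #1 and of 97.5% with sgL1ASP #3. This left 257 genes at least as high with sgL1ASP #1, FKBP11 included, and 319 with sgL1ASP #3. With both sgRNAs it was found in 113 genes (0.881%), FKBP11 included, and 116 genes (0.904%) were lower than mock by at least the same size with both. A level more than 1.5-fold higher than mock with both sgRNAs was found in 87 genes (0.678%). FKBP11 was included for being higher with both, so its place in these counts is a description only. Of 7231 genes whose mean FPKM reached 10, the number at least as high as FKBP11 with both was 27 (0.373%). FKBP11 reached this mean only through the sgRNA libraries, as mock stood at FPKM 8.20. All but 4 of these 27 carry names of snoRNA, Cajal body RNA or microRNA genes, and the 4 are C6orf57, FKBP11, PCNA-AS1 and SNAR-G1, itself a small RNA gene, which were singled out after their values were seen.

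**Figure D3:**
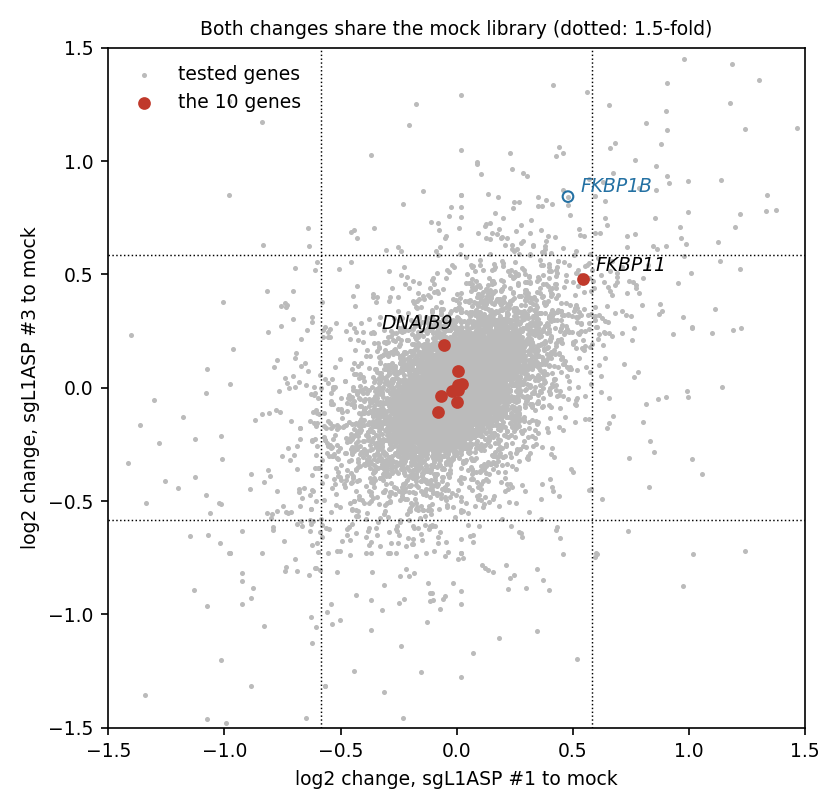
Log2 change with sgL1ASP #1 (horizontal) against that with sgL1ASP #3 (vertical) for the tested genes (grey), the 10 genes (red) and FKBP1B (open circle), with dotted lines at 1.5-fold. Both axes share the mock library, 191 of the 12830 genes lie outside the axes, and FKBP11 sits at 0.54 and 0.48, while the other 9 genes lie near the centre.

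The genes closest to FKBP11 in the plane of the changes with each sgRNA, among 12346 genes with FPKM of at least 1 in every library, were USH1C, LOC100128361, ZNF624, FAM86EP and RPL13AP20, at distances of 0.023 to 0.044 on the log2 scale. This likeness rests on 3 libraries. USH1C, a scaffold protein of hair cells and gut epithelium, had FPKM 2.31 for mock, 3.38 with sgL1ASP #1 and 3.30 with sgL1ASP #3. ZNF624, which encodes a zinc finger protein, stood at FPKM 1.37, 2.01 and 1.90 in these libraries. RPL13AP20, a pseudogene of a ribosomal protein gene, had FPKM 9.48, 14.3 and 13.2, and its reads can be shared with its parent gene. All 5 lay below FPKM 10 in mock.

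In the annotation, CCDC65, a gene for a component of cilia, overlaps FKBP11 on the opposite strand. FPKM of CCDC65 was 1.01 for mock, 1.62 with sgL1ASP #1 and 1.21 with sgL1ASP #3, or about 17, 27 and 17 reads. CCDC65 was thus also lowest in mock, with log2 changes of 0.64 and 0.24 and counting errors of 0.45 and 0.50. The study counted fragments by strand. Its part in the values of FKBP11 was not tested. A protein-coding readthrough model, ENSG00000272822, overlaps FKBP11 and ARF3 on the same strand from 49297286 to 49351148, and was not analysed here. ARF3, 9.249 kb away, had FPKM 54.3 for mock, 53.5 with sgL1ASP #1 and 55.9 with sgL1ASP #3, which is a log2 change of -0.022 and 0.042. A shift of reads between overlapping models was not tested.

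Other prolyl isomerases were followed to place FKBP11 within its family. Of the 8 isomerases of the ER, FKBP11 included, 6 were higher than mock with sgL1ASP #1 (50.3% of all tested genes were). With sgL1ASP #3, 4 of these isomerases were higher (50.4% of all tested genes), and 0 passed 1.5-fold with either sgRNA. PPIB, cyclophilin B, was the highest of them, with FPKM 593 for mock, 609 with sgL1ASP #1 and 592 with sgL1ASP #3, and FKBP7 the lowest, with 4.24, 3.86 and 4.25. FKBP9 had FPKM 13.7, 15.6 and 15.9 in the same libraries, and FKBP10, an isomerase that acts on collagen, had 179, 188 and 187. Their log2 changes were 0.18 and 0.21 for FKBP9 and 0.072 and 0.064 for FKBP10. FKBP2 and FKBP14 had log2 changes between -0.15 and 0.094. PPIC, cyclophilin C, had the lowest change of the list with sgL1ASP #3, with FPKM 33.8 for mock, 30.9 with sgL1ASP #1 and 28.0 with sgL1ASP #3 and log2 changes of -0.13 and -0.27. The median over the 8 genes was 0.058 with sgL1ASP #1 and 0.00023 with sgL1ASP #3.

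Among the 9 tested genes of the family outside the ER, 0 passed 1.5-fold with sgL1ASP #1 and 1 with sgL1ASP #3, beside 3.55% and 3.8% of all tested genes. The 1 gene was FKBP1B, or calstabin 2, which stabilizes the calcium release channel, with FPKM 9.56 for mock, 13.4 with sgL1ASP #1 and 17.2 with sgL1ASP #3. Mock was again the lowest library. The log2 change of FKBP1B was 0.48 with a counting error of 0.22 for sgL1ASP #1 and 0.84 with 0.22 for sgL1ASP #3. The difference between the sgRNAs was -0.36 (sgL1ASP #1 to sgL1ASP #3), with a 95% counting interval from -0.76 to 0.029. The other 8 tested genes of this group had log2 changes between -0.16 and 0.13, and FKBP1A, the binding partner of the drug FK506, had the highest level, with FPKM 176 in mock. FKBP6 was listed at 0 in mock and sgL1ASP #3 and at FPKM 0.142 in sgL1ASP #1.

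The wider machinery of the ER was followed in 7 lists of sensors, chaperones, disulfide isomerases, degradation factors, prolyl isomerases, translocon subunits and PERK targets. The lists hold 103 genes found in the files, of which 102 were tested. More than 1.5-fold change was seen in 0 of the 102 genes with either sgRNA, beside the 3.55% and 3.8% of all tested genes given above. Against mock, 67 genes were higher and 35 lower with sgL1ASP #1, and 59 were higher and 43 lower with sgL1ASP #3. Of all tested genes, 50.3% were higher with sgL1ASP #1 and 50.4% with sgL1ASP #3. The shift under equal FPKM sums given above applies to the counts of the 7 lists together and to those of the single lists. The shares of all tested genes stand beside the single lists as well. Of the 10 genes described above, 9 are in these lists and XBP1 is in none. Without them, the median log2 change over 93 genes was 0.026 with sgL1ASP #1 and 0.016 with sgL1ASP #3. The median size of change, without regard to sign, was 0.076 and 0.063 for these 93 genes and 0.094 and 0.095 for all tested genes. Many genes of the lists are highly expressed, and the part of their level in the smaller changes was not tested.

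The sensors were present at low to moderate levels. ERN1, which encodes IRE1, had FPKM 2.98 for mock, 2.87 with sgL1ASP #1 and 2.99 with sgL1ASP #3. EIF2AK3, which encodes PERK, had FPKM 7.35, 8.49 and 7.68, and ATF6 had 8.04, 7.29 and 7.22. MBTPS1, the protease that releases ATF6 in the Golgi, was the highest of this list (FPKM 44.5 in mock), and ERN2, a gut form of IRE1, the lowest (0.028 in mock, listed at 0 with both sgRNAs). With either sgRNA, 4 of the 9 tested genes were higher than mock and 5 lower.

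Among the 18 chaperones and co-chaperones, 9 were higher and 9 lower than mock with each sgRNA, and their median log2 changes were -0.00028 and 0.0075. CALR was the highest of them and SIL1, the nucleotide exchange factor of HSPA5, the lowest, with FPKM 13.6 for mock, 12.4 with sgL1ASP #1 and 12.1 with sgL1ASP #3. Among the 16 disulfide isomerases and oxidases, 13 were higher with sgL1ASP #1 (50.3% of all tested genes were) and 11 with sgL1ASP #3 (50.4%). Their medians were 0.045 and 0.020. P4HB, protein disulfide isomerase itself, had FPKM 523 for mock, 556 with sgL1ASP #1 and 534 with sgL1ASP #3. TMX3 was the lowest of this list, with FPKM 7.63 in mock. Of the 21 degradation factors, 15 were higher with sgL1ASP #1 and 12 with sgL1ASP #3. AUP1 had the highest level among them (FPKM 178 in mock), and EDEM3, a mannosidase that marks glycoproteins for degradation, the lowest, with FPKM 5.57 for mock, 4.80 with sgL1ASP #1 and 4.49 with sgL1ASP #3. The log2 change of EDEM3 with sgL1ASP #3, -0.30, was the lowest over all 7 lists for this sgRNA, with a 95% counting interval from -0.53 to -0.076.

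**Figure D4:**
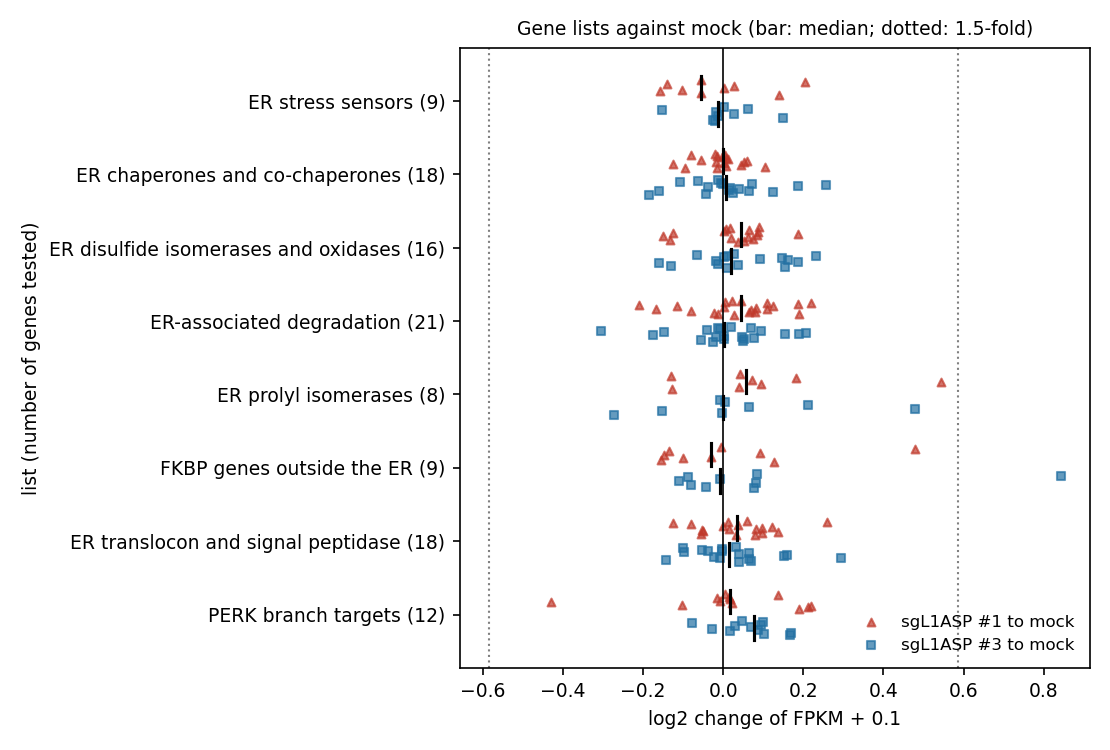
Log2 change of FPKM + 0.1 against mock for each tested gene of 8 lists, with triangles for sgL1ASP #1, squares for sgL1ASP #3, short bars for the median of a list and dotted lines at 1.5-fold. The points crowd around 0, FKBP11 stands to the right among the ER prolyl isomerases at 0.54 and 0.48, and FKBP1B with sgL1ASP #3 is the only point beyond a dotted line.

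The 18 genes of the translocon and the signal peptidase, through which proteins enter the ER, had medians of 0.035 with sgL1ASP #1 and 0.015 with sgL1ASP #3. SSR4, a subunit of the translocon complex, was the highest (FPKM 622 for mock, 629 with sgL1ASP #1 and 694 with sgL1ASP #3) and SPCS2, a signal peptidase subunit, the lowest (7.04, 7.75 and 8.66). SEC61A2 had a log2 change of 0.26 with sgL1ASP #1 and -0.10 with sgL1ASP #3. For the PERK branch, 8 of 12 targets were higher with sgL1ASP #1 (50.3% of all tested genes were) and 10 with sgL1ASP #3 (50.4%). Their medians were 0.016 and 0.078. ATF4, the transcription factor of this branch, had FPKM 920 for mock, 924 with sgL1ASP #1 and 950 with sgL1ASP #3. DDIT3, or CHOP, which is known to promote cell death under lasting stress, had FPKM 139.6, 153.5 and 149.5. The lowest change of the branch was that of CHAC1, a glutathione-degrading enzyme, at -0.43 with sgL1ASP #1 (95% counting interval -0.82 to -0.040) and -0.027 with sgL1ASP #3. VLDLR was the lowest in level, with FPKM 4.91 in mock.

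The promoter elements printed above were also used to pick genes by sequence alone. ERSE or ERSE-II was held by the windows of 36 genes found in the files, 29 of them tested, and this choice was made after the values of the 10 genes had been seen. They include CANX, PDIA6, CRELD2, HYOU1 and SERP1, chaperones and folding factors of the ER, beside genes of other functions. More than 1.5-fold change was seen in 0 of the 29 genes with either sgRNA, beside 3.55% and 3.8% of all tested genes. With sgL1ASP #1, 17 were higher and 12 lower than mock, where 50.3% of all tested genes were higher, at a median log2 change of 0.0036. With sgL1ASP #3, 13 were higher and 16 lower, where 50.4% of all tested genes were higher, at a median of -0.0036. Without the 6 genes already shown, the medians over 23 genes were 0.0080 and 0.0031. The extremes were TRIM5, a restriction factor against retroviruses, at 0.42 with sgL1ASP #3, and SYNPO, an actin-binding protein, at -0.37 with sgL1ASP #1. TRIM5 had FPKM 7.31 for mock, 7.64 with sgL1ASP #1 and 9.85 with sgL1ASP #3.

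Between the sgRNAs, 0 of the 10 genes differed by more than 1.5-fold, beside 3.77% of all tested genes. The log2 change from sgL1ASP #3 to sgL1ASP #1 lay between -0.24 in DNAJB9 and 0.067 in FKBP11, at a median of 0.00027. The 95% counting interval lay off 0 for DNAJB9 and HSP90B1, and HSP90B1 had a change of 0.065 with an interval from 0.040 to 0.090.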

How the data were processed

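RNA-seq of 293T cells with dCas9-VP64 and mock, sgL1ASP #1 or sgL1ASP #3 was analysed, with 1 library per condition. The authors prepared TruSeq stranded mRNA libraries, read them as single ends, mapped them to hg19 with TopHat2 2.0.13, Bowtie2 2.2.3 and SAMtools 0.1.19, and computed the deposited FPKM per gene by strand with Cuffdiff of Cufflinks 2.2.1. The gene annotation and the scaling between libraries are not given in the sources used here. Of the value columns, 0 belonged to no sample.

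FPKM were used as deposited, as log2(FPKM + 0.1), for genes with mean FPKM of at least 1. With single libraries there is no test. Poisson counting errors came from the estimated depth and the spliced length of the reference transcript (GENCODE 44 lifted to GRCh37) less a fragment of 200 bases, and intervals are 1.96 errors wide on each side. The depth in mock came from a peak of 38 among 955 genes with a single transcript, and relative depths from 367 of 1476 and 345 of 1404 genes with FPKM under 0.3. The precision covers counting error only. Promoter windows were those of RefSeq (GRCh38.p14), in which all 10 genes matched. Gene names changed since (5 in the lists) were matched through RefSeq synonyms.

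The 10 genes and the lists were chosen with earlier results of these data known. Genes named are the 10 genes, list genes past 1.5-fold, and the highest and lowest of each list in mock. Also named are some of the genes that overlap or neighbour the 10 genes, and the 5 nearest to FKBP11 in both changes. Others were named after their values were seen. On simulated data of 10973 genes, 200 of 200 genes raised 2-fold with both sgRNAs were recovered (100.0%), and 26 of 10773 unchanged genes were called. These shares describe the simulated data only. They are not the performance of the real comparison, in which the depths differed and the spread between cultures is unknown. Recovery of smaller changes, such as 1.5-fold, or of raised genes with lower mean FPKM was not tested. Python 3.11.15, NumPy 2.4.6, pandas 2.3.3 and matplotlib 3.10.9 were used. Guide sequences and their genomic targets, and the reporter, RT-PCR and growth experiments, were not analysed here.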

Additional observations from a re-analysis of the deposited data

How the results depend on the processing

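No paired analysis was possible because there was only 1 library of each kind. After each library was rescaled to an FPKM sum of 1000000, all tested genes had a median log2 change of -0.0916 with sgL1ASP #1 and of -0.117 with sgL1ASP #3. The 10 genes moved with it, to medians of -0.089 and -0.12, and 1 was then higher and 9 lower than mock with sgL1ASP #1, 2 higher and 8 lower with sgL1ASP #3. The direction of the small changes therefore depends on the scaling, while FKBP11 stayed higher, at 0.45 and 0.36. Rescaling to the median ratio, with factors between 0.99943 and 1.0017, and other pseudocounts moved none of the values of the 10 genes beyond counting error. Genes more than 1.5-fold higher than mock with both sgRNAs numbered 87, and 403 with no filter on low values, 35 with FPKM of at least 1 in every library, 47 with a pseudocount of 1, 39 above 2-fold and 25 with mean FPKM of at least 10 (added later). Genes lower with both numbered 87, and in the same settings 532, 35, 47, 31 and 27. With equal FPKM sums 71 genes were higher and 130 lower. Among FKBP genes outside the ER, 1 gene, FKBP6, passed 1.5-fold with sgL1ASP #1 with no filter, and 0 passed 2-fold with sgL1ASP #3. The depth limits FKBP11 most, with about 42 reads in mock.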
